A study of Mus musculus with 2 samples.

Results

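Visual cycle genes were examined in single cells of the mouse retinal pigment epithelium (RPE) and choroid, as 9 genes chosen by their known role: Rpe65, Lrat, Rlbp1, Rgr, Rrh, Rdh5, Rdh10, Rdh11 and Stra6. All 9 were found by symbol among the 32285 genes of the deposited gene list. The Tsc1 flox library came from mice that carry the conditional allele Tsc1tm1Djk/J without Cre. The other library, Tsc1 RPE KO, came from mice with the same allele and the Best-Cre transgene, which the labels call specific to the RPE. Mice of both genotypes were 10 weeks old, and tissue of 1 male and 1 female was pooled for each library. Both groups carry the floxed allele and only Tsc1 RPE KO carries Cre, so loss of Tsc1 and the presence of the Cre transgene cannot be told apart. The neuroretina was removed, the remaining eye cups were dissociated by enzyme digestion, and sorted live cells were captured in droplets for sequencing of RNA 3′ ends.

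The visual cycle returns bleached chromophore to photoreceptors. Stra6 takes up retinol from the blood, Lrat esterifies it for storage, Rpe65 isomerises the ester to 11-cis-retinol, and the retinol dehydrogenases, with Rdh5 as the best known of them, oxidise this to 11-cis-retinal, which the carrier protein encoded by Rlbp1 binds. Rgr and Rrh encode opsins of the RPE, and photoreceptors hold the return arm, in which Abca4, Rdh8 and Rdh12 clear all-trans-retinal and Rbp3 carries retinoids between the cell layers.

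Depth was alike, at a median of 4525 UMIs (unique molecular identifiers, 1 per captured RNA molecule) over 1524 cells of Tsc1 flox and of 4617 UMIs over 1853 cells of Tsc1 RPE KO. Cells were grouped without use of the 9 genes, and the class called RPE-like was named from other markers, led by Ttr. It held 12 cells in Tsc1 flox, with 1540 to 4696 UMIs each and 32094 in all, and 44 cells in Tsc1 RPE KO, with 1383 to 6463 UMIs each and 105341 in all. A further 2 barcodes of Tsc1 RPE KO carried at least 10 UMIs of leukocyte markers and were left out. Of the 12 RPE markers, 11 were seen in this class in each library, and Best1, a defining gene of the RPE, had 0. Best1 had only 1 UMI over all barcodes of both libraries. The libraries shared 2 cell barcodes, none of them RPE-like. Tsc1, the targeted gene, was at 0 UMIs in all RPE-like cells, Tsc1 flox included, where 3 counts would be 93.5 CPM (UMIs per 1000000 UMIs of the class) against 28.5 CPM in Tsc1 RPE KO, and 3′ tags need not cover the deleted part, so the labels could not be checked this way.

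With 1 library for each genotype no test between genotypes was possible, no difference below has a replicate check, and no p-value is given. Bracketed ranges are exact 95% intervals of counting error only, which leave out differences between mice, preparations and cells. UMIs mark 3′ ends, so levels were not divided by gene length.

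Together the 9 genes took 4.06% of all RPE-like UMIs of Tsc1 flox, against 2.63% of those of Tsc1 RPE KO. Rpe65, Rgr and Rrh stood lower in Tsc1 RPE KO and Lrat stood higher, while Rdh5, Rlbp1 and Stra6 differed by less than 1.5-fold with intervals that included 1. Of the 8 genes with at least 50 UMIs over both libraries, 3 were at least 1.5-fold lower in Tsc1 RPE KO, where 13.2% of the 334 genes measured in these cells were, and 1 was at least 1.5-fold higher, where 14.7% were. Rdh10, at 1.49-fold lower, lay just outside that limit. The median log2 ratio of the 8 genes was -0.41, beside -0.06 over all 334. Scaling moved the background: counted per UMI of Ttr, 20.96% of the 334 genes were lower and 11.7% higher, with a median of -0.20, and per UMI of the other RPE markers, an alternative added after seeing the data, 1.497% were lower and 47.6% higher, with a median of 0.56. The markers behind the last scale summed to 380 of 32094 UMIs for Tsc1 flox, against 812 of 105341 for Tsc1 RPE KO. This lower share in Tsc1 RPE KO raises every ratio on that scale. Enpp2 stood at 3832 CPM (3185 to 4573) in Tsc1 flox and 1244 CPM (1040 to 1476) in Tsc1 RPE KO. Slc16a8, Cspg5, Krt18, Krt8 and Pon1 were also lower there. Trpm3, at 467 and 911 CPM, Ermn, at 436 and 778 CPM, Slc6a20a and Otx2 were higher. On that scale Rpe65 was 2.20-fold lower, Rgr 1.36-fold lower and Lrat 3.65-fold higher. Rrh, at 0.728 (0.471 to 1.14), was then no longer 1.5-fold lower, Rdh5, at 1.73 (1.496 to 2.02), was 1.5-fold higher, and Rdh10 turned to a ratio of 1.03.

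**Figure D1:**
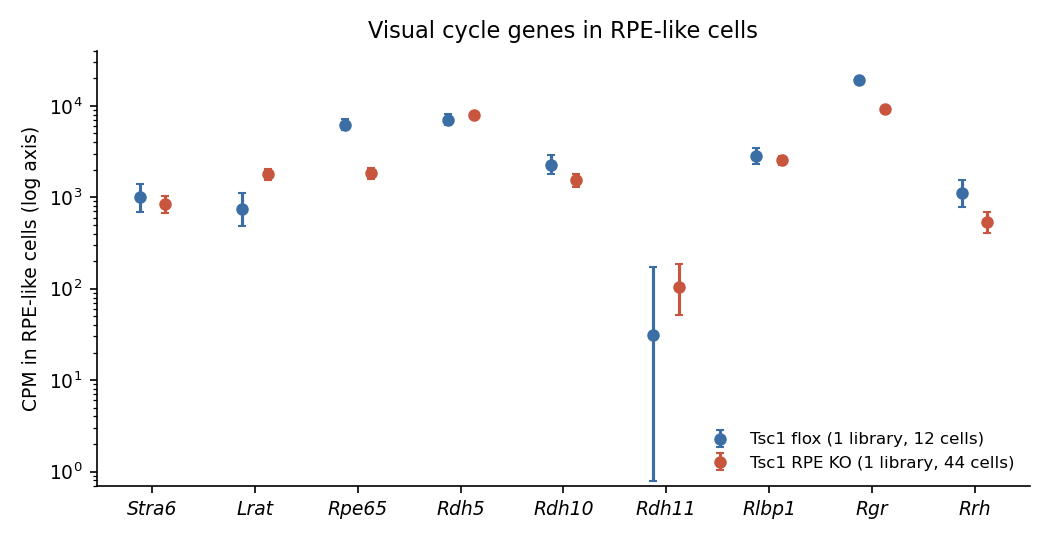
Level of each visual cycle gene in RPE-like cells, in CPM on a log axis, for the Tsc1 flox library (blue, 12 cells) and the Tsc1 RPE KO library (red, 44 cells); bars are exact 95% Poisson intervals of counting error. Rpe65 stood at 6201 and 1832 CPM and Lrat at 748 and 1775 CPM, and the bars of Rdh11 are wide because it had 1 and 11 UMIs.

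Stra6, the membrane receptor for retinol bound to its plasma carrier, was counted 32 times in the 12 Tsc1 flox cells and 88 times in the 44 Tsc1 RPE KO cells. Its level was 997 CPM (682 to 1408) in the first and 835 CPM (670.0 to 1029) in the second, a ratio of 0.838 (0.553 to 1.30), and a difference could not be detected with these counts. Every Tsc1 flox cell held between 1 and 5 UMIs of Stra6, and 33 of the 44 Tsc1 RPE KO cells held any. The gene lies on chromosome 9 from 58063788 to 58153996 on the plus strand (GRCm38, as are all positions here), where Gm16131 overlaps it on the same strand and Ccdc33 on the other.

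Lrat, lecithin retinol acyltransferase, was the member that stood higher in Tsc1 RPE KO. It had 24 UMIs in Tsc1 flox, spread over 9 of the 12 cells with at most 7 in a cell, and 187 UMIs in Tsc1 RPE KO, in 39 of the 44 cells with at most 18. That was 748 CPM (479 to 1113) and 1775 CPM (1529.9 to 2049), or 2.37-fold higher (1.55 to 3.798) in Tsc1 RPE KO. Per 1000 UMIs of a cell, the lowest, median and highest Tsc1 flox cells held 0, 0.624 and 3.03 UMIs of Lrat and the Tsc1 RPE KO cells 0, 1.37 and 5.92. The cells overlapped, with 33 of 44 Tsc1 RPE KO cells above the Tsc1 flox median and 9 above the highest Tsc1 flox cell. The single highest Tsc1 flox cell held 29.2% of that library's Lrat. Once cells were thinned to 1000 UMIs, Lrat was seen in 7 of 12 (58.3%) and 27 of 44 (61.4%). Lrat lies on chromosome 3 from 82892579 to 82903973 on the minus strand, with Rbm46os on the opposite strand.

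Rpe65, the isomerase, had the lowest ratio of the measured members. The 12 Tsc1 flox cells held 199 UMIs, with 6 to 33 in each, and the 44 Tsc1 RPE KO cells 193 UMIs, with 0 to 16 in each. The level was 6201 CPM (5369 to 7124) in Tsc1 flox and 1832 CPM (1583 to 2109.7) in Tsc1 RPE KO, 3.38-fold lower (2.76 to 4.15). Per 1000 UMIs of a cell, Tsc1 flox cells ranged from 2.93 over a median of 6.34 to 9.01, and Tsc1 RPE KO cells from 0 over 1.41 to 6.45. Most of the Tsc1 RPE KO cells, 32 of 44, lay below the lowest Tsc1 flox cell, and 6 of the 12 Tsc1 flox cells lay above the highest Tsc1 RPE KO cell. At least 1 UMI of Rpe65 was seen in 12 of 12 cells (100%, 73.5 to 100%) and in 38 of 44 (86.4%, 72.7 to 94.8%). After every cell had been thinned to 1000 UMIs these were 12 of 12 and 30 of 44 (68.2%, 52.4 to 81.4%). In B cell-like cells, which should lack the gene, 0 of 412 cells of Tsc1 flox, which allows a share with a UMI of up to 0.728% (3 counts), and 2 of 320 of Tsc1 RPE KO had a UMI, at median depths of 3906.5 and 3868 UMIs against 2582 and 2096.5 in the RPE-like cells. Rpe65 lies on chromosome 3 from 159599175 to 159625321 on the plus strand, with no gene of the annotation overlapping it.

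**Figure D2:**
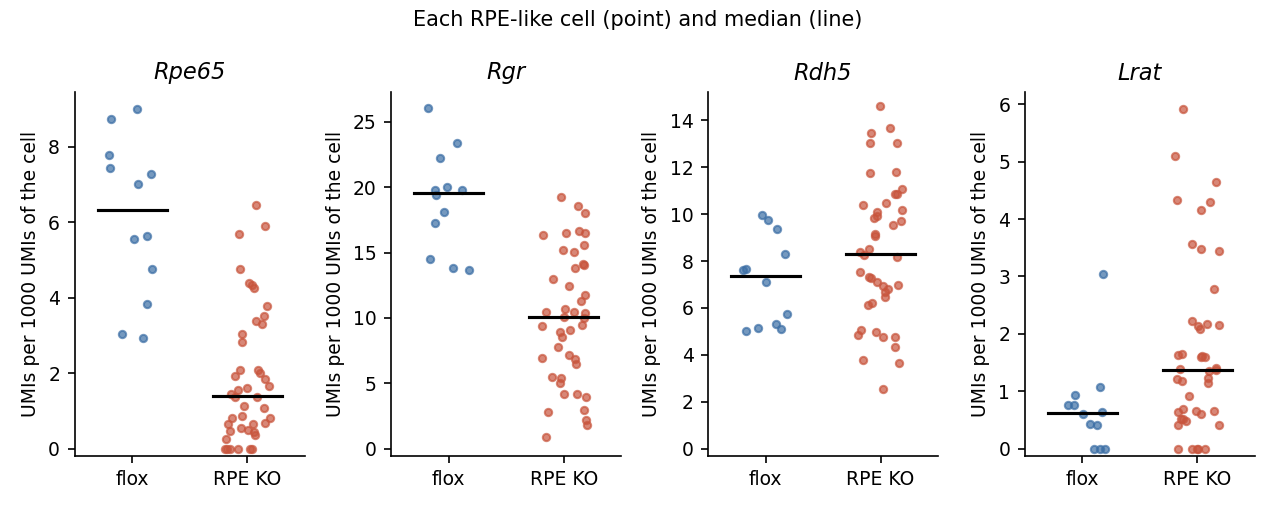
UMIs of Rpe65, Rgr, Rdh5 and Lrat per 1000 UMIs of the cell (vertical axes), 1 point for each RPE-like cell of Tsc1 flox (12 cells, blue) and Tsc1 RPE KO (44 cells, red), with a black line at the median; points are spread sideways for legibility. Of the 44 Tsc1 RPE KO cells, 32 lie below all Tsc1 flox cells for Rpe65 and 31 for Rgr, while the cells overlap widely for Rdh5.

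Rdh5, the RPE enzyme that forms 11-cis-retinal, had 227 and 841 UMIs and was seen in all 12 and all 44 RPE-like cells. Its level of 7073 CPM (6183 to 8055) in Tsc1 flox and 7984 CPM (7453 to 8542) in Tsc1 RPE KO gave a ratio of 1.13 (0.974 to 1.31). Its cells overlapped on both sides, with 14 Tsc1 RPE KO cells above the highest and 8 below the lowest Tsc1 flox cell per 1000 UMIs. Rdh10, which oxidises all-trans-retinol and also serves retinoic acid synthesis in other tissues, had 73 UMIs in Tsc1 flox, in every cell, and 161 in Tsc1 RPE KO, in 38 of 44 cells. At 2275 CPM (1783 to 2859.9) and 1528 CPM (1301 to 1784) it was 1.49-fold lower (1.11 to 1.97), with 14 of 44 Tsc1 RPE KO cells below the lowest Tsc1 flox cell and 3 above the highest. Rdh11, a broadly expressed retinol dehydrogenase, had 1 and 11 UMIs in these cells, or 31.2 CPM (0.789 to 174) and 104 CPM (52.1 to 187), too few for a comparison. Rdh5 lies on chromosome 10 from 128913593 to 128922888 on the minus strand, where Bloc1s1 overlaps it on the same strand, so reads of these neighbours are less certain to be told apart. Rdh10 lies on chromosome 1 from 16105774 to 16133734 on the plus strand and Rdh11 on chromosome 12 from 79174337 to 79192293 on the minus strand.

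Rlbp1, which encodes the retinaldehyde binding protein CRALBP and is also a gene of Müller glia, had 91 and 267 UMIs in RPE-like cells. It stood at 2835 CPM (2283 to 3481) in Tsc1 flox and 2535 CPM (2239.7 to 2858) in the other library, a ratio of 0.894 (0.702 to 1.15). Per 1000 UMIs, Tsc1 flox cells held 0 to 4.70 and Tsc1 RPE KO cells 0 to 8.72, with 4 of the 44 above the highest Tsc1 flox cell. Of the Müller glia markers, Aqp4, Slc1a3 and Kcnj10 were at 0 UMIs in the RPE-like cells of both libraries, and Glul, which other cells also express, had 17 and 48. Dkk3 had 0 UMIs in Tsc1 flox against 16 in Tsc1 RPE KO, 152 CPM (86.8 to 247), and its part in the level of Rlbp1 was not tested. The whole list of 5 summed to 530 and 608 CPM, with 1 and 2 of its genes seen. Rlbp1 lies on chromosome 7 from 79374870 to 79387048 on the minus strand.

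Both opsins of the RPE stood lower in Tsc1 RPE KO. Rgr was the most abundant member in each library, with 619 UMIs in the 12 Tsc1 flox cells (21 to 94 in each) and 971 in the 44 Tsc1 RPE KO cells (2 to 60 in each). Its level was 19287 CPM (17797 to 20868) and 9218 CPM (8647 to 9816), 2.09-fold lower (1.89 to 2.32). Per 1000 UMIs, the lowest, median and highest Tsc1 flox cells held 13.6, 19.6 and 26.0 UMIs of Rgr and the Tsc1 RPE KO cells 0.908, 10.03 and 19.3. No Tsc1 RPE KO cell reached the Tsc1 flox median, and 31 of 44 lay below the lowest Tsc1 flox cell. Rrh, which encodes peropsin, had 36 and 56 UMIs, or 1122 CPM (786 to 1553) and 532 CPM (402 to 690.3), 2.11-fold lower (1.35 to 3.26), with 27.8% of its Tsc1 flox UMIs in a single cell. It was seen in 11 of 12 and 28 of 44 cells, and in 6 of 12 and 19 of 44 once cells were thinned to 1000 UMIs. Rgr lies on chromosome 14 from 37034909 to 37048964 and Rrh on chromosome 3 from 129804408 to 129822587, both on the minus strand.

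The promoters of Rpe65 and Rgr, which both stood lower, and of Lrat, which stood higher, are shown to compare the letters upstream of members whose levels differed in opposite directions. They were taken from RefSeq (GRCm38.p6), run 5′ to 3′ on the strand of the gene, and cover 240 bases that end 11 bases before the RefSeq start, free of annotated exons. Capitals mark matches to TAATCC, the core of OTX2 and CRX sites, and to CATGTG, the core of MITF sites, on either strand (GGATTA and CACATG on the reverse). The windows are chr3:159598931-159599170 on the plus strand for Rpe65, chr14:37049025-37049264 on the minus strand for Rgr and chr3:82903985-82904224 on the minus strand for Lrat.
Rpe65: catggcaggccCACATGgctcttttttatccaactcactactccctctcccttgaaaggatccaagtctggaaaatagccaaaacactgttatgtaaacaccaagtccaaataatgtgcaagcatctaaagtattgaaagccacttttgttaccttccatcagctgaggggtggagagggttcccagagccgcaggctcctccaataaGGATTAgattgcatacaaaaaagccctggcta
Rgr: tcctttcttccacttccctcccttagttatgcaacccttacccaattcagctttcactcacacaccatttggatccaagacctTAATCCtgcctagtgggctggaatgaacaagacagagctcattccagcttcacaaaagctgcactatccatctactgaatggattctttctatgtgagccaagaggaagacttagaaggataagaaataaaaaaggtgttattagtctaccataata
Lrat: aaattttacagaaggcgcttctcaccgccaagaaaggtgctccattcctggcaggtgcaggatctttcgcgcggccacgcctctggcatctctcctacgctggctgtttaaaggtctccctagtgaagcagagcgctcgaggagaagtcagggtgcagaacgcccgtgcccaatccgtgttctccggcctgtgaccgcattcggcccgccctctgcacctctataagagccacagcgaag

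The Rpe65 window held 1 match to each motif, TAATCC on the antisense strand starting 42 bases before the start as read along the gene, and CATGTG, also antisense, starting 239 bases before it. The Rgr window held 1 TAATCC on the sense strand, 167 bases before the start, and the Lrat window held neither. The bases just after the RefSeq start of Rgr were not found in a GENCODE transcript of that gene, whereas those of Rpe65 and Lrat were. Promoters were listed for 8 of the 9 members, with several for Rdh11 and Stra6. In the 250 bases before their starts TAATCC was found for 2 members, Rgr and Rpe65, and CATGTG for 2, Rlbp1 and Rpe65. Over all 32851 promoters of that length in the table, 6.25% held TAATCC and 12.3% held CATGTG on either strand. Those shares are per promoter, and the promoters belong to 27025 genes. A member was counted if any of its promoters matched, so the counts of members are not directly comparable with them. All matches here are letter matches and not measured sites. Otx2, which encodes OTX2 and was among the markers that named the class, had 8 and 43 UMIs in RPE-like cells, or 249.3 CPM (108 to 491) and 408 CPM (295 to 550.0), and Mitf had 2 UMIs in each library.

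The balance between members within the same cells does not depend on how counts are scaled. For each UMI of Rpe65, 0.121 UMIs of Lrat were counted in Tsc1 flox against 0.969 in Tsc1 RPE KO, and the balances differed 8.03-fold (4.96 to 13.4). Rpe65 outnumbered Lrat in all 12 Tsc1 flox cells. In Tsc1 RPE KO it did so in 20 of 44 cells, Lrat outnumbered Rpe65 in another 20, and in the remaining cells the counts were equal. Rdh5 per UMI of Rpe65 was 1.14 against 4.36, a ratio of 3.82 (2.96 to 4.92). Rdh5 per UMI of Rgr was 0.367 and 0.866, a ratio of 2.36 (1.97 to 2.84). Rgr outnumbered Rdh5 in 12 of 12 Tsc1 flox cells and in 27 of 44 Tsc1 RPE KO cells. Rgr per UMI of Rpe65, with both members lower, was 3.11 and 5.03, a ratio of 1.62 (1.29 to 2.03). Capture can differ between genes, so these balances are compared between libraries only.

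The RPE-like cells also differed in other ways between the libraries. Mitochondrially encoded genes took 1.53% of the UMIs of Tsc1 flox against 2.92% for Tsc1 RPE KO, with single cells up to 3.18% and 14.4%. In the 33 Tsc1 RPE KO cells at or below 3.18%, a restriction added after seeing the data, Rpe65 was 3.22-fold lower (2.59 to 4.01), Rgr 2.002-fold lower (1.80 to 2.23) and Lrat 2.103-fold higher (1.35 to 3.41), while Rdh10 was 2.09-fold lower (1.51 to 2.90). Rod markers summed to 312 CPM in Tsc1 flox (3 of 13 genes seen) and 465 CPM in Tsc1 RPE KO (7 of 13), with a range over cells of 0 to 838 and 0 to 2596 CPM. Melanocyte markers, most of which the RPE also expresses, summed to 1464 and 2649 CPM (6 of 7 genes in each, with Pmel at 0), of which Dct had 32 and 246 UMIs. They ranged over cells from 383 to 7143 and from 0 to 12166 CPM. Haemoglobin genes summed to 530 CPM in Tsc1 flox (17 UMIs), against 133 CPM (14 UMIs). Whether these differences have a part in the ratios of the members was not tested beyond the restriction on mitochondrial share.

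**Figure D3:**
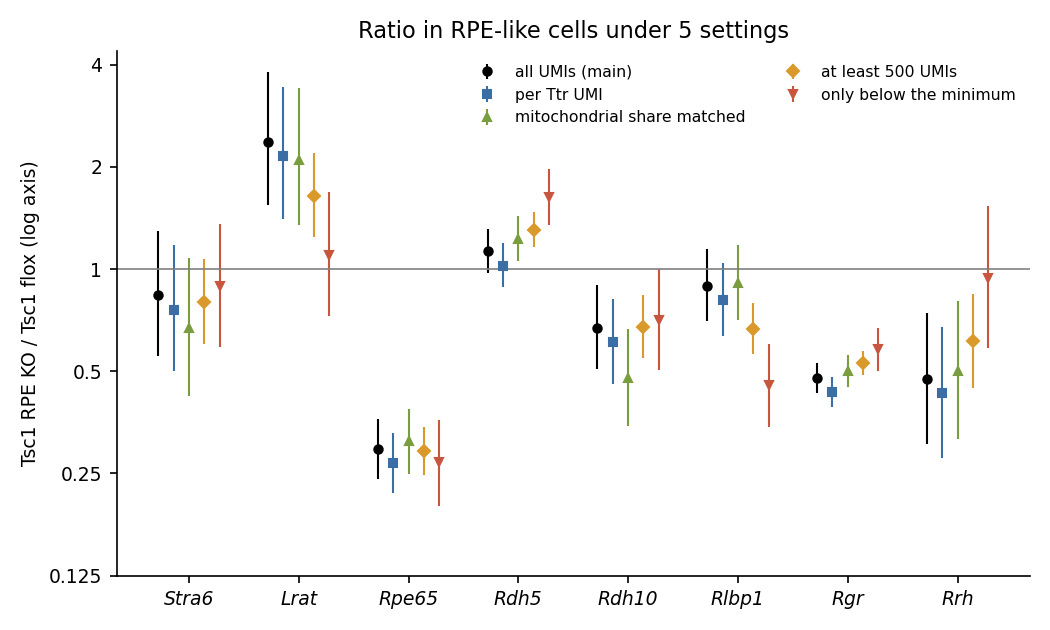
Ratio of each member between the libraries in RPE-like cells, Tsc1 RPE KO over Tsc1 flox, on a log axis with a line at 1, under 5 settings; bars are exact 95% intervals of counting error, and Rdh11 is not drawn because it had too few UMIs. Rpe65 and Rgr lie below 1 in all 5, whereas Lrat falls from 2.37 to 1.10 and Rlbp1 from 0.894 to 0.455 when only barcodes below the UMI minimum for cells are used.

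Barcodes that were not counted as cells offered further values for the same libraries. RPE-like barcodes with 500 UMIs up to the minimum for cells (1487.4 UMIs for Tsc1 flox, 1373.6 for Tsc1 RPE KO) numbered 30 and 48, and shared no barcode with the cells above. In them Rpe65 had 165 and 70 UMIs and was 3.71-fold lower in Tsc1 RPE KO (2.79 to 4.98), and Rgr was 1.72-fold lower (1.49 to 1.99). Lrat, at a ratio of 1.10 (0.730 to 1.69), and Rrh, at 0.943 (0.586 to 1.54), did not show their difference there, while Rlbp1 was 2.20-fold lower (1.66 to 2.92) and Rdh5 1.63-fold higher (1.35 to 1.98). The ratio of the Lrat to Rpe65 balances was 4.09 (2.45 to 6.87).

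The share of RPE material differs between libraries outside cells, so members were there counted per UMI of Ttr, the abundant retinol carrier gene of the RPE. Ttr itself stood in RPE-like cells at 102106 CPM for Tsc1 flox against 112492 CPM for Tsc1 RPE KO. In free RNA, taken as the 65704 and 69484 barcodes with 10 to 100 UMIs, Rpe65 was counted 85 times for Tsc1 flox against 50 times for Tsc1 RPE KO. That was 68.9 and 18.4 per 1000 UMIs of Ttr, 3.75-fold lower (2.61 to 5.43), beside 3.73-fold (3.04 to 4.57) in the RPE-like cells. In barcodes with over 100 and under 500 UMIs Rpe65 was 4.11-fold lower (2.05 to 8.83), and in all barcodes with 500 UMIs up to the minimum 5.45-fold lower (4.12 to 7.29). Rgr per Ttr was 1.87-fold lower (1.56 to 2.24) in free RNA, 1.65-fold (1.12 to 2.41) between 100 and 500 UMIs and 2.56-fold (2.22 to 2.95) from 500 UMIs. Rdh5 per Ttr stayed between 0.906 and 1.10 in all 4 sets of barcodes, each interval including 1. Lrat per Ttr was 2.15 (1.40 to 3.45) in RPE-like cells, 2.01 (1.11 to 3.88) in free RNA and 2.43 (0.968 to 7.27) between 100 and 500 UMIs, but 0.731 (0.484 to 1.12) from 500 UMIs up to the minimum. Rlbp1 per Ttr had a ratio below 1 in all 4, from 0.811 (0.637 to 1.04) in cells to 0.303 (0.228 to 0.401) from 500 UMIs. Rrh per Ttr was 0.430 (0.278 to 0.673) in cells, 0.383 (0.156 to 0.928) in free RNA on 13 and 11 UMIs, 0.615 (0.382 to 1.003) from 500 UMIs, and on the other side of 1, at 2.03 (0.521 to 11.5), between 100 and 500 UMIs on 3 and 10 UMIs. Counted instead per UMI of the other RPE markers, Rpe65 was lower in all 4 sets, between 0.341 and 0.454, with no interval that included 1. On that scale Rdh5 was 1.73 (1.496 to 2.02) in cells, 1.25 (0.980 to 1.61) in free RNA, 1.54 (1.01 to 2.38) between 100 and 500 UMIs and 2.13 (1.77 to 2.59) from 500 UMIs. Lrat was above 1 in all 4, from 1.43 (0.948 to 2.19) from 500 UMIs to 3.65 (2.38 to 5.83) in cells. Rgr was below 1 in all 4, from 0.734 (0.663 to 0.813) in cells to 0.852 (0.582 to 1.25) between 100 and 500 UMIs. Rrh from 500 UMIs turned to 1.21 (0.748 to 1.97). All these barcodes come from 1 cell suspension in each library, so they are no replicates of a genotype.

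**Figure D4:**
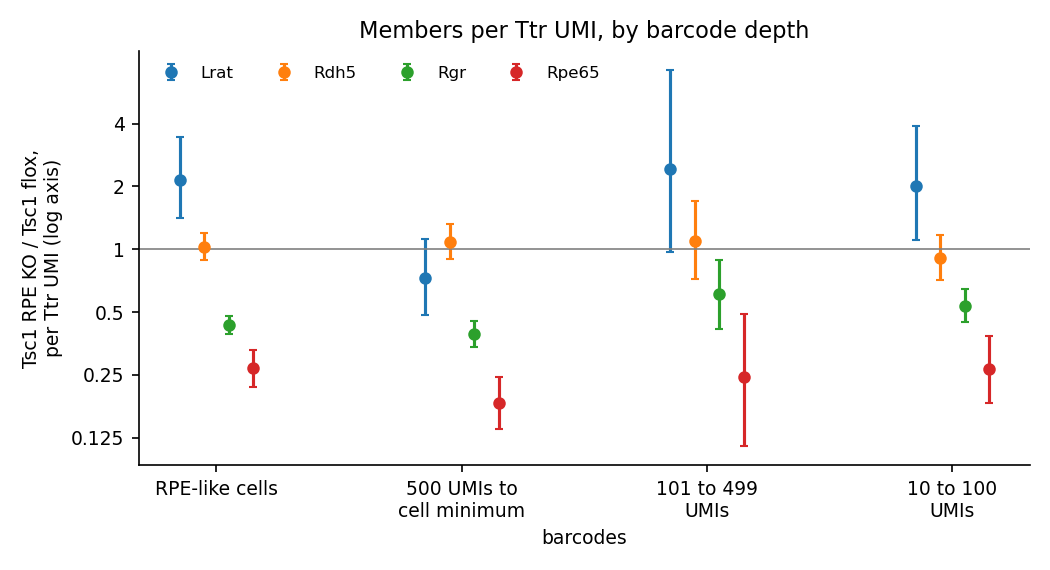
Ratio of Lrat, Rdh5, Rgr and Rpe65 per UMI of Ttr, Tsc1 RPE KO over Tsc1 flox, on a log axis with a line at 1, in RPE-like cells and in 3 depth classes of other barcodes; bars are exact 95% intervals of counting error. Rpe65 lies between 0.183 and 0.268 and Rgr between 0.391 and 0.608 in all 4 sets, Rdh5 lies near 1, and Lrat lies above 1 except in barcodes with 500 UMIs up to the cell minimum.

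Outside the RPE the members were rare. Of all their UMIs in cells, RPE-like cells held 98.0% for Rpe65, 96.5% for Rgr, 94.6% for Lrat, 93.2% for Rlbp1, 92.9% for Rrh, 92.3% for Stra6 and 87.3% for Rdh5, although they made up only 0.787% of Tsc1 flox cells (0.408 to 1.37%) against 2.37% of Tsc1 RPE KO cells (1.73 to 3.17%). The remaining UMIs include those of the 2 RPE-like barcodes with leukocyte RNA that were left out, whose counts are given under other observations. The shares of cells depend on digestion, sorting and the UMI minimum. Rdh10 was the exception among the well measured members at 51.9%, and Rdh11 had only 5.15% of its 233 UMIs in RPE-like cells.

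In rod-like cells, named from 13 photoreceptor markers and numbering 42 for Tsc1 flox against 176 for Tsc1 RPE KO although the neuroretina had been removed, Lrat, Rrh and Stra6 had 0 UMIs in both libraries and Rpe65 had 0 and 1. The floor of 3 counts there was 25.9 CPM for the first and 4.97 CPM for the second. Rgr had 1 and 3 UMIs, Rlbp1 1 and 2, and Rdh5 3 and 8, which for Rdh5 was 25.9 CPM (5.34 to 75.7) and 13.3 CPM (5.72 to 26.1). Rdh5 stood at 0.323 times (0.0656 to 0.973) and 0.0902 times (0.0384 to 0.181) its level in the free RNA of the same library. Ttr, the most abundant RPE marker in free RNA, stood in these cells at 0.0173 times (0.00209 to 0.0626) and 0.0230 times (0.0152 to 0.0333) its own. Whether these few UMIs of Rdh5, Rgr and Rlbp1 come from rods or from free RNA was not tested. Rdh11 was the only member above free RNA in rod-like cells of both libraries. It had 8 UMIs in Tsc1 flox, 69.1 CPM (29.8 to 136), and 18 in Tsc1 RPE KO, 29.8 CPM (17.7 to 47.1), which was 7.12 times (2.52 to 18.9) and 2.01 times (1.002 to 4.001) its level in free RNA. Between the libraries its intervals in rod-like cells overlapped. Some cells of the class carried cone RNA, defined by at least 10 UMIs of cone markers, 1 of the 42 and 5 of the 176. Without them Rdh11 stood at 70.3 CPM (30.4 to 139) and 29.9 CPM (17.4 to 47.8), and its ratio to free RNA in Tsc1 RPE KO, 2.01 (0.990 to 4.05), had an interval that included 1.

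Rdh10 and Rdh11 were also found at low levels in other classes. Fibroblast-like cells had 31 and 22 UMIs of Rdh10, 27.0 CPM (18.3 to 38.3) and 28.3 CPM (17.7 to 42.8), rod-like cells of Tsc1 RPE KO 28.2 CPM (16.4 to 45.1) and macrophage or monocyte-like cells 18.1 CPM (8.70 to 33.4) and 18.5 CPM (13.8 to 24.4). B cell-like cells had 6.05 CPM (2.90 to 11.1) and 6.80 CPM (3.11 to 12.9), below the fibroblast-like cells with intervals that did not overlap. The point values all lay below free RNA, at 38.8 and 55.6 CPM. Ttr, a marker of free RNA from the RPE, stood in fibroblast-like cells at 0.00698 and 0.00445 times its free RNA level. Rdh10 stood there at 0.695 and 0.508 times its own. Whether these UMIs of Rdh10 come from the cells or from free RNA was not tested. Rdh11 ranged from 6.02 CPM in T or NK cell-like cells to 69.1 CPM in rod-like cells of Tsc1 flox, among named classes with at least 5 of its UMIs outside the RPE. In B cell-like cells, at 9.68 and 14.4 CPM, it lay at its free RNA level. Fibroblast-like cells of Tsc1 flox had 24.4 CPM (16.2 to 35.2) of Rdh11 and those of Tsc1 RPE KO 15.4 CPM (7.97 to 26.9), and within each library the intervals of neighbours in this order overlapped.

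**Figure D5:**
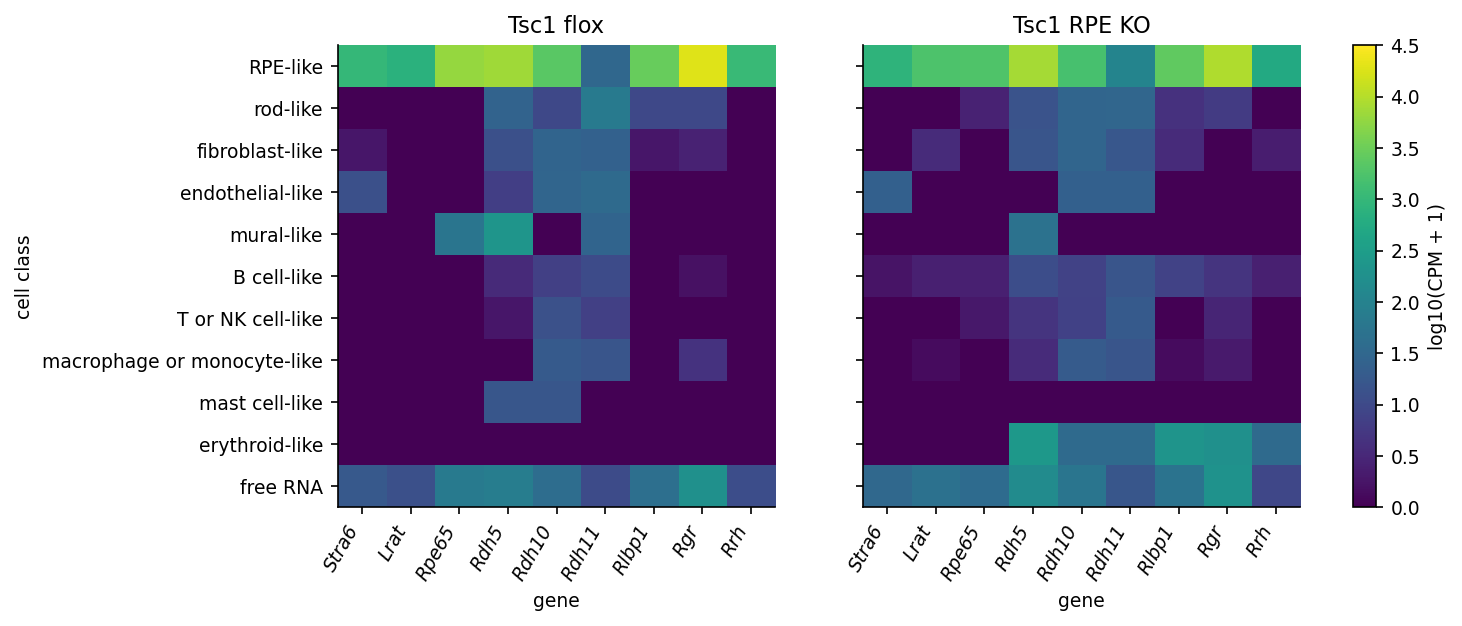
Level of each member (columns) in each cell class and in free RNA (rows) for the Tsc1 flox library (left) and the Tsc1 RPE KO library (right), coloured by log10(CPM + 1). The top row, RPE-like cells, is brightest for every member except Rdh11 in Tsc1 flox, which had 1 UMI there, and the bottom row shows that free RNA holds all 9 members in both libraries.

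The photoreceptor arm was read in the rod-like cells. Rdh12 stood at 777 CPM (625 to 955) in the first library and 575 CPM (516 to 639) in the second, Rbp3 at 1684 and 1121 CPM, and Abca4 at 535 and 444 CPM. All 3 stood above free RNA, by 17.4 to 24.0 times in Tsc1 flox and by 7.04 to 8.49 times in Tsc1 RPE KO, and Rdh12 and Rbp3 had 0 UMIs in RPE-like cells. Abca4 was also found in RPE-like cells, with 6 and 33 UMIs, 6.08 and 4.97 times its free RNA level. Of the list of 53 other retinoid genes, 52 were in the files and 10 had at least 50 UMIs in rod-like cells. Of these 10, 3 were at least 1.5-fold lower in Tsc1 RPE KO, where 6.38% of 2712 measured genes were, and 4 at least 1.5-fold higher, where 17% were. Among the lower ones were Rbp3 at 1.501-fold (1.27 to 1.76) and the cone opsin gene Opn1mw at 2.04-fold (1.47 to 2.80). The higher ones were Opn1sw, with 0 and 416 UMIs, and Dhrs7, Adh5 and Scarb1. Dhrs7, on 2 and 51 UMIs, had a ratio of 4.89 (1.29 to 41.5), and the intervals of Adh5, at 1.78, and Scarb1, at 1.65, included 1. Dhrs3, a retinal reductase, stood at 104 and 119 CPM. The cells with cone RNA held all UMIs of Opn1mw and 409 of the 416 of Opn1sw, and without them Rbp3 was 1.41-fold lower.

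In RPE-like cells 22 of the other retinoid genes had a UMI and 3 had at least 50. Of these 3, none was 1.5-fold lower, where 13.2% of the 334 measured genes were, and Degs1 was 1.5-fold higher, where 14.7% were. A count over 3 genes is too small to compare with these shares. Ttr was 1.10-fold higher in Tsc1 RPE KO (1.06 to 1.15). Degs1, a desaturase that has also been described as a retinol isomerase, had 15 and 79 UMIs, a ratio of 1.60 (0.916 to 3.001), with an interval that included 1.

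Genes with a class profile most like that of each member were ranked by Pearson correlation of log2(CPM + 10) over 20 profiles of named classes by library, among 12059 genes. For Rpe65 these were Tmem56 (r = 0.98), Pon1 and Ociad2, and for Lrat Ermn (r = 0.998), Kcnj13 and Ociad2. Rgr and Rrh shared Rsph10b (r = 0.997 for each) and Car14, and Rsph10b also led for Rlbp1 (r = 0.99). Rdh5 was closest to Itgb8 (r = 0.95), Ttr and Nt5dc2, Stra6 to Wfdc2 (r = 0.99), Slc6a20a and Met, and Rdh10 to Mt3 (r = 0.96), Car14 and Fcor. Rdh11, which was not concentrated in the RPE, was closest to Tsen34 (r = 0.88), Smpd2 and Ndufv1. The profiles share libraries and the contrast of the RPE with all other classes, and Pon1, Ermn, Ttr and Slc6a20a were markers that named the class, so these correlations are a description only.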

How the data were processed

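The authors deposited raw UMI counts per gene and barcode for each library, and all barcodes are listed. Cell Ranger 2.1.1 and the build mm10 are given per the submitters' processing notes, whereas Cell Ranger 4 is given per the file headers. Which version and which aligner settings gave the counts is not given in the sources used here. The labels name a 3′ v2 kit, and the lists of both libraries held 1207754 distinct barcodes, of which 182035 were shared, more than that kit's barcode list is known to hold. The members and gene lists were chosen with earlier results of these data known.

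Barcodes were called cells from 10% of the 99th percentile of the top 3000 barcodes, with at least 200 genes and at most 20% mitochondrial UMIs; Scrublet in scanpy 1.11.5 marked 8 and 19 doublets, which were removed. Counts of 2000 variable genes, members left out, were reduced to 30 components and clustered with leidenalg 0.10.2 at resolution 1 over 20 neighbours. A cluster took a class name from at least 3 of its markers, each with UMIs in 10% of the cluster and at least 2-fold above the remaining cells, if the whole list's mean log2 difference exceeded 1. Class names are thus rebuilt here. Counts were summed over cells of a class. Intervals came from scipy 1.17.1: exact Poisson for CPM, exact conditional binomial for ratios and Clopper-Pearson for shares (3 counts as the limit where none was seen). Those for CPM and ratios were tested on simulated Poisson counts, which hold no added variation between cells. Those for shares were not tested in this way. Alternatives covered the UMI minimum, scaling, free RNA, single cells and barcodes with leukocyte RNA. Genes were measured with at least 50 UMIs over both libraries. By rule the text names all members in the main classes, other retinoid genes with at least 50 UMIs in RPE-like or rod-like cells, and the 3 genes most like each member; others were chosen after their values were seen, and some genes that the rule names are not reported here. Positions come from GENCODE M21 (32235 of 32285 gene identifiers matched), promoters from RefSeq.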

Additional observations from a re-analysis of the deposited data

How the results depend on the processing

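Rpe65 and Rgr stood lower and Lrat higher in Tsc1 RPE KO in RPE-like cells under each of the 12 alternatives tried, with Rpe65 between 0.262 and 0.454 and Rgr between 0.432 and 0.734, but the interval of Lrat came to include 1 in barcodes below the UMI minimum. In those barcodes the ratios were 1.10 for Lrat, 0.455 for Rlbp1, 0.580 for Rgr, 0.943 for Rrh and 1.63 for Rdh5, and with at least 500 UMIs Rlbp1 was 0.668; the cause was not tested. Among cells with mitochondrial shares up to the highest of Tsc1 flox, an alternative added after seeing the data, Rdh10 was 0.478. A further added alternative counted members per UMI of the RPE markers other than Ttr, which moved the median log2 ratio of all 334 genes to 0.56. There Rpe65 was 0.454, Rgr 0.734, Rlbp1 1.37, Rrh 0.728, Rdh5 1.73 and Rdh10 1.03, on the other side of 1, and 1 member was at least 1.5-fold lower and 2 at least 1.5-fold higher, against 3 and 1; over all genes 1.497% were lower and 47.6% higher. The counts of members stayed at 3 or 4 lower and 1 higher in every other setting. Below the UMI minimum the genes differed, with Rpe65, Rgr and Rlbp1 lower and Rdh5 higher. With leukocyte barcodes kept, per Ttr, without the top cell and in the cells matched on mitochondrial share, 4 were lower. Shares over all measured genes, lower and higher, were 11.1% and 19.7% with leukocyte barcodes kept, and 20.96% and 11.7% per Ttr. They were 16.6% and 21.9% below the UMI minimum, and 12.9% and 13.97% in the cells matched on mitochondrial share. At a fold of 2 they were 2.99% and 6.89%, and from 20 UMIs over both libraries 19.6% and 20.98%. No such share was computed without the top cell or with each cell given equal weight. Rdh11 gave no ratio without the top cell, because Tsc1 flox then had 0 UMIs. Thinning cells to 1000 UMIs moved 5 of 18 shares of RPE-like cells with a UMI outside their intervals, all of them lower. No paired analysis was possible because each genotype has 1 library. The 12 Tsc1 flox RPE-like cells, with 32094 UMIs, set the width of most intervals.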

Other observations

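Small numbers of member UMIs were found in small classes outside the RPE, and these values were chosen after they were seen. In mural-like cells of Tsc1 flox, Rdh5 had 8 UMIs in 4 of 9 cells, or 219 CPM (94.4 to 431), above its free RNA level of 80.1 CPM, and Rpe65 had 2 UMIs in 2 cells, while in the 5 mural-like cells of Tsc1 RPE KO Rdh5 had 1 UMI. The 2 erythroid-like cells of Tsc1 RPE KO held 21 UMIs of 6 members, among them 7 of Rdh5, 6 of Rlbp1 and 5 of Rgr, whereas the 10 erythroid-like cells of Tsc1 flox held 0. The 2 RPE-like barcodes with leukocyte RNA held 44 UMIs of Rdh5, 29 of Rgr, 7 of Lrat and 2 of Rpe65 among 14642 UMIs.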
